A study of Homo sapiens with 6 samples.

Results

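Mitochondrial protein import genes were read out in the bladder carcinoma line 5637 after knockdown of RAD51C. The family was chosen by gene symbol: every deposited row named TIMM or TOMM followed by a digit and without a hyphen, plus SAMM50, MTX1, MTX2, PMPCA, PMPCB, MIPEP, GRPEL1, GRPEL2, CHCHD4, GFER, PAM16, DNLZ and OXA1L. This gave 38 of 23024 rows. The family was put forward with the differences between these same libraries in view, so the differences and calls of its members below are a description and not a test of the family. The RNA came from transfected cultures of 1 line in 2 groups of 3 libraries. The libraries titled NC carry the genotype label WT, and those titled sh-RAD51C carry the label RAD51C knockdown (sh is read here as a short hairpin RNA). The labels do not spell out NC, give no hairpin sequence or time point, and do not say whether the 3 libraries of a group were separate cultures, so p-values measure the spread between libraries, which may be technical.

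Nearly all mitochondrial proteins are made in the cytosol and threaded into the organelle. The TOM complex is the gate of the outer membrane, SAM inserts barrel proteins there, TIM23 with its ATP-driven motor pulls precursors with a cleavable presequence into the matrix, and TIM22 inserts carrier proteins into the inner membrane with the help of the small TIM chaperones of the intermembrane space. CHCHD4 and GFER run the disulfide relay of that space, peptidases remove the presequences, and OXA1L inserts proteins from the matrix side.

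RAD51C, the targeted gene, held 14.7, 13.2 and 13.6 FPKM (fragments per kilobase of gene length, scaled to the size of the library) in NC 1, 2 and 3, and 3.51, 3.09 and 2.95 FPKM in sh-RAD51C 1, 2 and 3. Its mean in sh-RAD51C was 23.0% of that in NC (limma adjusted p = 7.16e-09; exact two-sided permutation p = 0.1, the smallest that 3 libraries against 3 allow). Reads inferred from the FPKM steps came to between 36068282 and 38079825 per library. All 8 urothelial and epithelial markers were expressed and called, 4 higher (KRT7, KRT8, KRT18, EPCAM) and 4 lower (KRT5, KRT17, TP63, CDH1). By means in NC and sh-RAD51C, KRT7 held 407 and 685 FPKM, KRT8 367 and 463, KRT18 265 and 433, and EPCAM 76.5 and 109. KRT5 held 686 and 301 FPKM, KRT17 371 and 132, TP63 28.8 and 17.8, and CDH1 35.5 and 32.7. Their sum, in which opposite shifts offset, ran from 2197 to 2260 FPKM in NC and from 2131 to 2207 FPKM in sh-RAD51C. The 5 endothelial markers, 4 of 5 listed fibroblast markers and 3 of 4 listed leukocyte markers stayed under 0.5 FPKM in every library. PECAM1, COL1A2 and PTPRC were among them. By means in NC and sh-RAD51C, the endothelial markers CDH5 and KDR held 0.024 and 0.245 FPKM and 0.014 and 0.051 FPKM. PECAM1 held 0.114 and 0.041 FPKM. In CDH5, KDR and PECAM1 the groups did not overlap, and in VWF and CLDN5 they did. The exceptions COL1A1 (9.94 ± 0.397 and 6.83 ± 0.386 FPKM in NC and sh-RAD51C, SD, n = 3 each) and CD14 (1.57 ± 0.156 and 0.573 ± 0.334 FPKM) were called lower. The part of these shifts in the values of import genes was not tested.

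Of the 38 import genes, 36 averaged at least 1 FPKM over the 6 libraries and were tested, and all 36 would have passed on the NC libraries alone, where the lowest mean was 1.32 FPKM for TIMM23B. PAM16 and TOMM20L were below the filter. Among the 36, 22 were called higher in sh-RAD51C, 2 were called lower and 12 were not called (adjusted p under 0.05 in limma, over all genes tested). Over all 11152 genes tested, 23.2% were called higher and 26.2% lower by the same rule, and each count of calls below stands against these shares. The groups did not overlap for 23 import genes that were higher in sh-RAD51C and for 3 that were lower, against 27.6% and 30.8% of all genes tested. The median difference, sh-RAD51C minus NC on the log2(FPKM + 1) scale, was 0.19 for the import genes and -0.01 for all genes tested. Because this contrast was known when the family was proposed, nothing is read from these counts about the family. In bulk RNA, fewer transcripts per cell and fewer cells expressing a gene cannot be told apart.

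**Figure D1:**
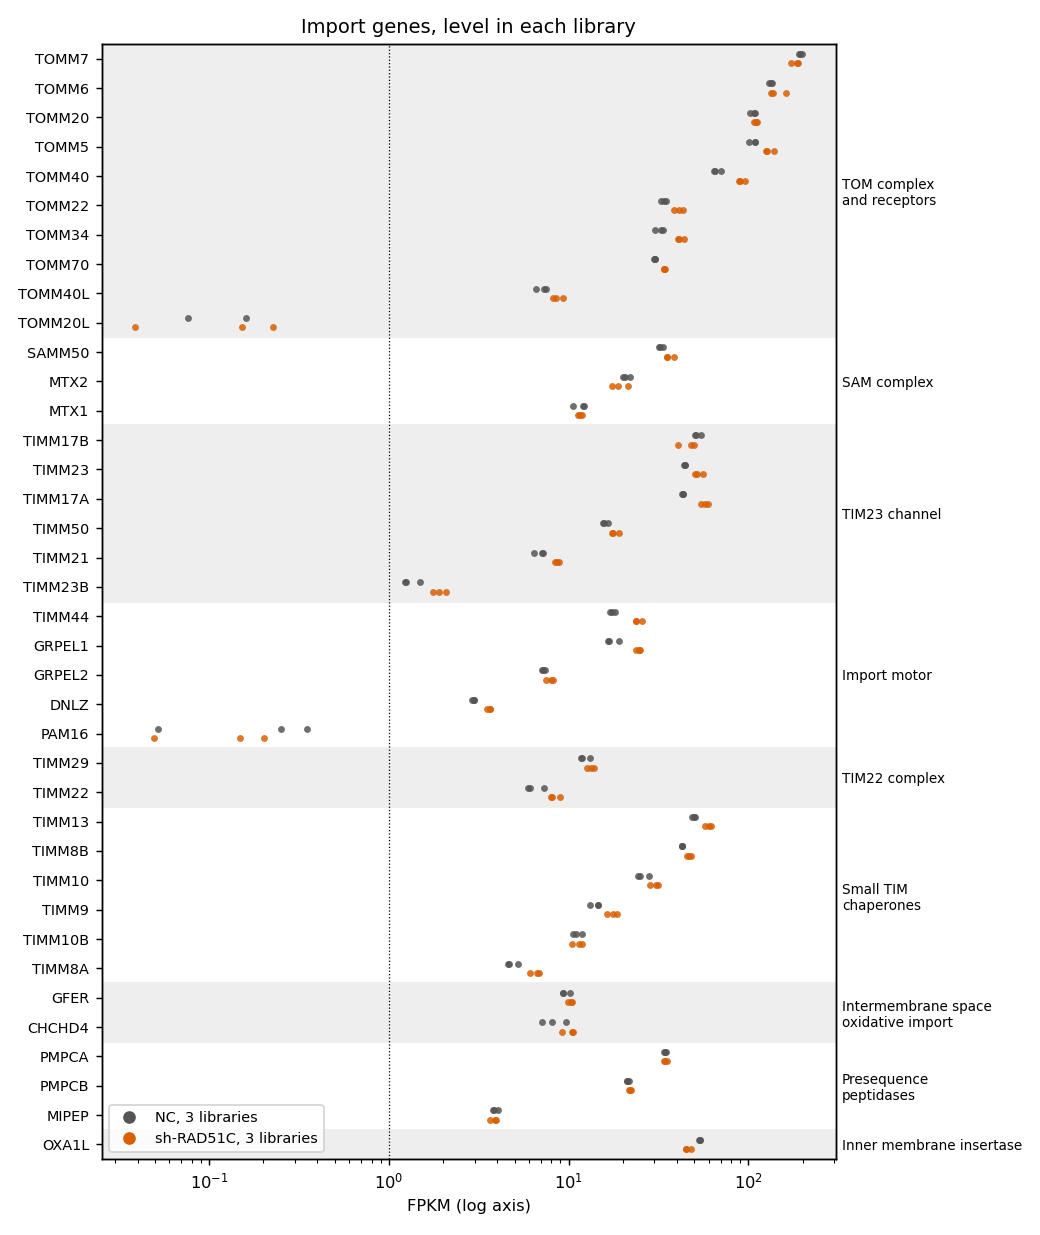
Level of each of the 38 import genes in every library (FPKM, log axis; 1 point per library, NC grey and sh-RAD51C orange, genes grouped by role; the dotted line marks 1 FPKM, and the NC 3 value of TOMM20L, listed at 0, has no place on the axis). TOMM7 is the highest gene in both groups, and PAM16 and TOMM20L lie left of the dotted line.

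In NC the levels of tested members ran from 1.32 FPKM to 194 FPKM, with a median of 21.1 FPKM against 8.7 FPKM for all genes tested. FPKM is a level per length, so genes can be ordered by it as far as their lengths and assigned reads hold. The TOM subunits led. TOMM7, a small subunit that steadies the channel, averaged 194 ± 4.59 FPKM (SD, n = 3), followed by the small subunit TOMM6 at 132 ± 2.92 FPKM, the presequence receptor TOMM20 at 106 ± 3.4 FPKM and the small subunit TOMM5 at 106 ± 4.83 FPKM. TOMM20 and TOMM5 could not be ordered, since their NC libraries overlapped. The place of TOMM6 is uncertain, since all its exon bases are shared with overlapping annotated genes. The channel itself, TOMM40, came next at 66.4 ± 3.08 FPKM. Below it, OXA1L and TIMM17B overlapped, as did TIMM17A and TIMM8B, and likewise the neighbours from PMPCA through TOMM22 and SAMM50 to TOMM34. The lowest tested members were TIMM8A, MIPEP, DNLZ and TIMM23B, each apart from its neighbour.

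Between 40 and 60 FPKM the NC means ran OXA1L, TIMM17B, TIMM13, TIMM23, TIMM17A and TIMM8B (ranks 6 to 11 of 38). In sh-RAD51C the same 6 genes again held ranks 6 to 11, by means in the order TIMM13, TIMM17A, TIMM23, TIMM8B, TIMM17B and OXA1L, but all neighbours there overlapped except TIMM23 and TIMM8B. OXA1L was above TIMM17A in every NC library, and below it in every sh-RAD51C library. TIMM17B and OXA1L were nearly level in sh-RAD51C, at means of 46.1 and 46.0 FPKM.

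Of the 9 tested genes with TOMM symbols, 6 were called higher (TOMM40, TOMM34, TOMM22, TOMM70, TOMM5 and TOMM40L) and 0 lower. These are 66.7% and 0%, against 23.2% and 26.2% of all genes tested. TOMM40, the beta-barrel that forms the pore (GENCODE 29 on GRCh38, chromosome 19 from 44890569 to 44903689, plus strand), held 64.3, 64.9 and 69.9 FPKM in NC 1, 2 and 3 and 95.8, 88.9 and 90.3 FPKM in sh-RAD51C 1, 2 and 3. Every sh-RAD51C library lay above every NC library, and the mean was 1.38-fold higher (log2 difference 0.46 ± 0.043 SE). TOMM34, a cytosolic co-chaperone that escorts precursors, held 30.3, 32.7 and 33.5 FPKM in NC and 40.4, 43.6 and 40.9 FPKM in sh-RAD51C. Its groups were also apart, with a difference of 0.36 ± 0.046 (log2, SE).

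The central receptor TOMM22, which joins the receptors to the pore, held 34.8, 32.8 and 33.8 FPKM in NC and 43.0, 41.2 and 38.5 FPKM in sh-RAD51C, a difference of 0.27 (log2). TOMM70, the receptor for carrier precursors that arrive with cytosolic chaperones, was higher by less but with little spread, at 30.1 ± 0.28 FPKM in NC and 34 ± 0.407 FPKM in sh-RAD51C (SD, n = 3 each). TOMM20, the receptor for presequences, was not called, at 103, 108 and 109 FPKM in NC and 108, 111 and 111 FPKM in sh-RAD51C, where the groups overlapped.

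Of the small TOM subunits, TOMM5 was called higher, with 109, 109 and 101 FPKM in NC and 138, 127 and 125 FPKM in sh-RAD51C. TOMM6 was not called: it held 135, 133 and 129 FPKM in NC, and 161 FPKM in sh-RAD51C 1 but 137 and 134 FPKM in sh-RAD51C 2 and 3. TOMM7 was not called either, at 191, 200 and 193 FPKM in NC and 186, 189 and 173 FPKM in sh-RAD51C, lower in each (log2 difference -0.09). TOMM7 and TOMM6 have the shortest inferred lengths of the tested members, 434 and 602 bases, and removing each library's trend with gene length, an alternative added after seeing the data, gave a call for TOMM6 (0.21) and turned the direction of TOMM7 (0.04). All exon bases of TOMM6 are shared with overlapping annotated genes, so its value is uncertain.

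SAMM50, the core of the SAM complex, was called higher, with 31.6, 32.3 and 33.4 FPKM in NC and 38.5, 35.4 and 35.4 FPKM in sh-RAD51C. Its metaxin partners were not called. MTX1 held 12.2, 11.9 and 10.5 FPKM in NC and 11.3, 11.5 and 11.8 FPKM in sh-RAD51C, and its mean was nearly the same in both groups. MTX2 held 22, 20 and 20.6 FPKM in NC and 21.4, 17.4 and 18.9 FPKM in sh-RAD51C, a difference of -0.11 (log2), and without sh-RAD51C 1 it was called lower (-0.19).

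The inner membrane channel TIM23 had 6 tested genes, 5 called higher (83.3%) and 1 lower (16.7%), against 23.2% and 26.2% of all genes tested. TIMM17A, which with TIMM23 forms the channel (chromosome 1 from 201955491 to 201970661, plus strand), held 43.0, 42.8 and 43.0 FPKM in NC and 59.9, 57.2 and 54.3 FPKM in sh-RAD51C, 1.33-fold higher by means and 0.40 ± 0.04 on the log2 scale (SE). All 3 sh-RAD51C libraries lay above the NC libraries, which hardly differed among themselves. TIMM17B, the other isoform of that subunit (chromosome X from 48893447 to 48898143, minus strand), went the other way, with 54.4, 51.3 and 50.6 FPKM in NC and 49.8, 47.9 and 40.5 FPKM in sh-RAD51C (log2 difference -0.18 ± 0.066, SE). The lowest library was sh-RAD51C 3, and without it the difference was -0.09 and not called, and the call was also lost without NC 1 (-0.15), NC 2 (-0.19) or NC 3 (-0.20). The groups did not overlap.

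TIMM23, the channel's core, held 44.2, 43.6 and 44.5 FPKM in NC and 56.0, 52.0 and 50.1 FPKM in sh-RAD51C. The receptor TIMM50, which takes precursors over from TOM, was at 15.9 ± 0.548 FPKM in NC and 18.1 ± 0.886 FPKM in sh-RAD51C (SD, n = 3 each). TIMM21, which links TIM23 to TOM and to the respiratory chain, was at 6.93 ± 0.454 and 8.61 ± 0.198 FPKM. TIMM23B, a copy of TIMM23 on the same chromosome, held 1.22, 1.25 and 1.48 FPKM in NC and 1.77, 1.90 and 2.09 FPKM in sh-RAD51C (1.46-fold by means, against 1.40-fold for GRPEL1; log2 difference 0.33, and 0.51 with a pseudocount of 0.1), from 110 to 198 inferred reads per library. The pair shares sequence: 17% of the 50-base words of TIMM23 transcripts recur in other genes. TIMM23B had more of these matches than any other gene, so reads may be split between TIMM23 and TIMM23B.

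In the import motor, 3 of 4 tested genes were called higher (75%, against 23.2% of all genes tested). GRPEL1, the nucleotide exchange factor of the motor's Hsp70 (chromosome 4 from 7058906 to 7068197, minus strand), differed by 0.46 ± 0.055 (log2, SE), as much as TOMM40. It held 16.6, 16.7 and 19.1 FPKM in NC and 24.5, 25.0 and 23.6 FPKM in sh-RAD51C. TIMM44, the scaffold that ties Hsp70 to the channel (chromosome 19 from 7926718 to 7943920, minus strand), held 17.5, 17.0 and 18.1 FPKM in NC and 25.7, 23.7 and 23.5 FPKM in sh-RAD51C, a difference of 0.45 ± 0.046 (log2, SE). In both genes the groups were far apart.

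DNLZ, which keeps the Hsp70 soluble, was at 2.95 ± 0.0294 FPKM in NC and 3.59 ± 0.0855 FPKM in sh-RAD51C (SD, n = 3 each) and was called higher. Of its exon bases 22.9% lie in other genes on the same strand, and 20% of its 50-base words recur in other genes, so its value is uncertain. GRPEL2, the second exchange factor, was not called at 7.24 ± 0.157 and 7.86 ± 0.365 FPKM, although its groups did not overlap. PAM16, a J-like regulator of the motor, was listed between 0.0494 and 0.35 FPKM. Of its annotated exon bases, 21.9% lie in the readthrough gene CORO7-PAM16, and how the authors assigned reads from that stretch is not given in the sources used here, so its level is uncertain.

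TIMM22, the channel for carrier proteins, was called higher, with 5.92, 6.13 and 7.27 FPKM in NC and 8.07, 9 and 7.94 FPKM in sh-RAD51C (log2 difference 0.33 ± 0.074, SE). Its partner TIMM29 was not called at 12.2 ± 0.759 and 13.3 ± 0.525 FPKM (SD, n = 3 each), but was called without NC 3 (0.16). Of the 6 small TIM chaperones, which carry hydrophobic precursors across the intermembrane space, 5 were called higher (83.3%, against 23.2% of all genes tested). TIMM13 held 50.1, 49.9 and 48.8 FPKM in NC and 62.1, 60.0 and 57.4 FPKM in sh-RAD51C, and TIMM9 was at 14.1 ± 0.796 and 17.5 ± 1.12 FPKM. TIMM10, the partner of TIMM9 in their hexamer, was at 25.7 ± 1.89 and 30.1 ± 1.75 FPKM, and with no minimum level for testing it was no longer called. TIMM10B was not called at 11.1 ± 0.664 and 11.2 ± 0.723 FPKM.

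TIMM8A, the gene of the deafness-dystonia syndrome and the partner of TIMM13, held 4.67, 4.57 and 5.24 FPKM in NC and 6.64, 6.79 and 6.08 FPKM in sh-RAD51C, a difference of 0.37 ± 0.064 (log2, SE). TIMM8B held 42.9, 42.6 and 42.6 FPKM in NC and 47.6, 46.9 and 45.3 FPKM in sh-RAD51C, and its call was lost with quantile normalization and with voom on inferred reads. TIMM8B and TIMM9 share 32.3% and 30.5% of their exon bases with genes on the opposite strand, and whether the authors counted by strand is not given in the sources used here.

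Of the 2 disulfide relay genes 1 was called higher. CHCHD4, the oxidoreductase that traps cysteine-rich precursors, held 7.13, 8.12 and 9.67 FPKM in NC and 9.16, 10.4 and 10.6 FPKM in sh-RAD51C. Its groups overlapped at NC 3, and its call was lost without NC 1, NC 2, sh-RAD51C 2 or sh-RAD51C 3 (0.16 to 0.24). GFER, which reoxidizes CHCHD4, was not called at 9.61 ± 0.52 and 10.2 ± 0.244 FPKM (SD, n = 3 each). None of the 3 presequence peptidase genes was called. PMPCA and PMPCB, the subunits of the processing peptidase, held 34.3 ± 0.517 and 21.3 ± 0.267 FPKM in NC and 34.5 ± 0.475 and 21.9 ± 0.218 FPKM in sh-RAD51C, and MIPEP, which trims a further stretch, was at 3.89 ± 0.132 and 3.84 ± 0.154 FPKM.

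OXA1L, which inserts proteins made on mitochondrial ribosomes (chromosome 14 from 22766522 to 22773041, plus strand), was the lower member whose call held in every alternative run. It held 53.6, 53.3 and 53.5 FPKM in NC and 48.1, 44.9 and 45.0 FPKM in sh-RAD51C, a difference of -0.21 ± 0.037 (log2, SE). Every sh-RAD51C library was below the NC range.

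**Figure D2:**
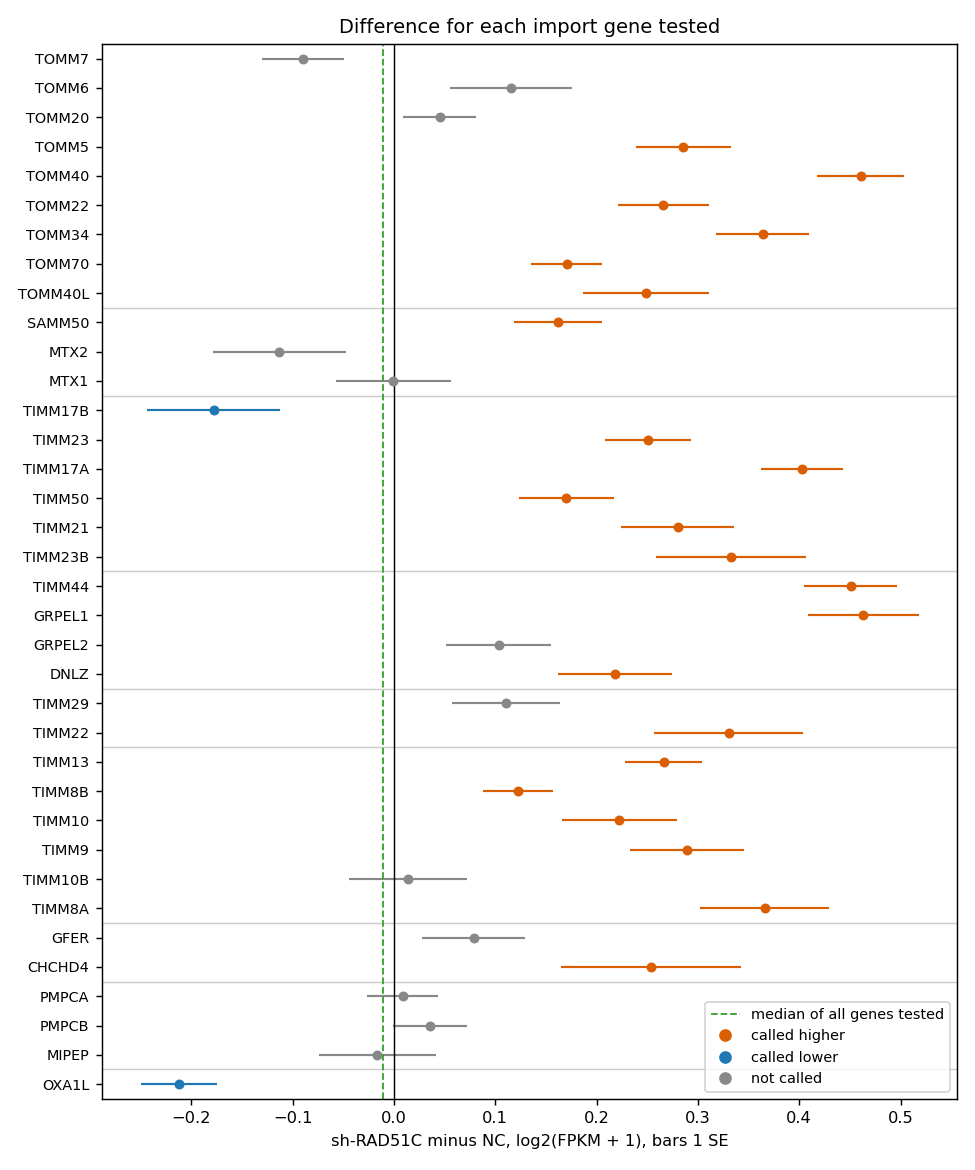
Difference between groups for each of the 36 tested import genes (x axis, sh-RAD51C minus NC on log2(FPKM + 1); bars 1 SE from limma; genes grouped by role and separated by lines). GRPEL1, TOMM40, TIMM44 and TIMM17A lie farthest right on this scale, where differences of low genes such as TIMM23B are understated, OXA1L and TIMM17B farthest left, and the dashed line marks the median of all genes tested, -0.01.

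Paralogs within the family differed in share. TIMM17A made up 44.2%, 45.5% and 45.9% of the summed FPKM of TIMM17A and TIMM17B in NC 1, 2 and 3, and 54.6%, 54.4% and 57.3% in sh-RAD51C 1, 2 and 3. By FPKM it was the minor gene of the pair in each NC library and the major in each sh-RAD51C library, a mean difference of 10.2 percentage points. Its side of 50% depends on the inferred lengths, 1650 bases for TIMM17A and 1100 for TIMM17B. In inferred reads TIMM17A was already above TIMM17B in NC 1, 2 and 3 (2562, 2651 and 2663 against 2157, 2117 and 2091). GRPEL1 held 70.6% ± 1.22 of its pair with GRPEL2 in NC and 75.6% ± 1.25 in sh-RAD51C (SD, n = 3 each), with the groups apart. TIMM8A held 10.1% ± 0.697 of its pair with TIMM8B in NC and 12.2% ± 0.42 in sh-RAD51C, also without overlap.

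TOMM40L, a paralog of TOMM40 of low abundance, was called higher at 7.11 ± 0.496 FPKM in NC and 8.63 ± 0.557 FPKM in sh-RAD51C (SD, n = 3 each), so both members of that pair were higher. TOMM40 held 90.3% of the pair in NC and 91.4% in sh-RAD51C, with overlapping groups. TIMM23 held 97.1% and 96.5% of its pair with TIMM23B, again with overlap. TOMM20L, listed from 0 to 0.227 FPKM, added under 1% to its pair with TOMM20 in every library.

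**Figure D3:**
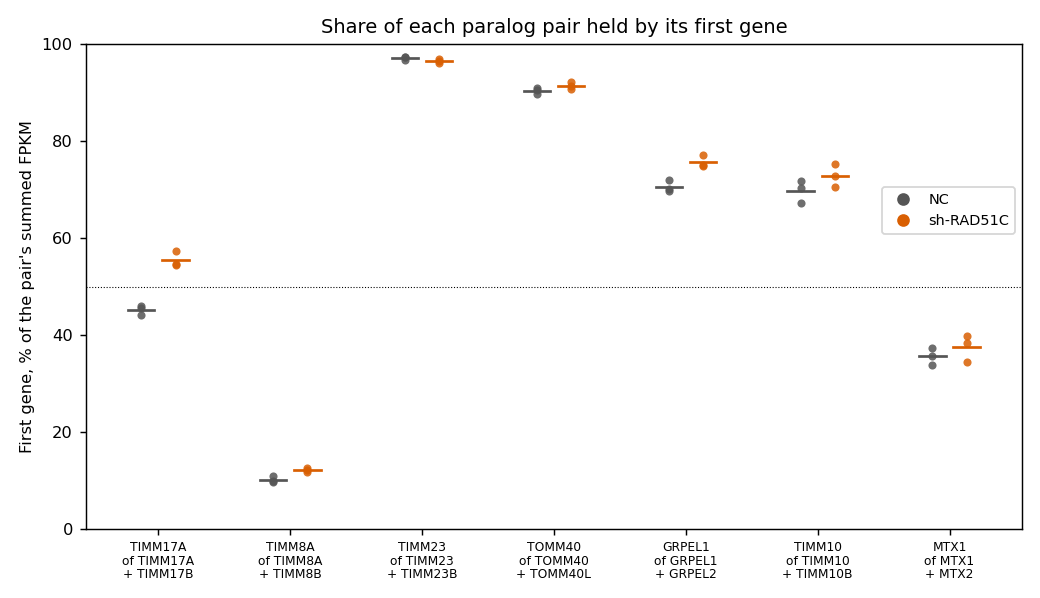
Share of each paralog pair's summed FPKM held by its first gene (y axis, percent; 1 point per library, short lines the group means, NC grey and sh-RAD51C orange). The TIMM17A share is below 50% in all NC libraries and above 50% in all sh-RAD51C libraries, while the TIMM10 and MTX1 shares overlap between groups.

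Promoters, which did not enter the choice of genes, were read from RefSeq windows of 300 bases on GRCh38.p14, from 250 bases before to 50 after each start. They were found for 34 of the 38 genes (35 windows, 2 of them for MTX1). Windows for GRPEL1, TIMM8B, TOMM5 and DNLZ are not used here. Letters were searched on both strands for motifs of factors known to act at promoters of nuclear genes for mitochondrial proteins: GCGCATGCG (NRF1 core), CCGGAAG (ETS core, as bound by GABP), AAGATGG (YY1 core) and CACGTG (E-box, as bound by MYC), and for the general CCAAT and GGGCGG boxes. The ETS core was in 16 of 35 import windows (45.7%), against 17.9% of the 13017 windows of genes tested and 10.3% of all 35116 windows. The NRF1 core was in 3 import windows (8.57%, against 3.33% and 1.92%). The E-box and the YY1 core were in 4 each (11.4%, against 9.45% and 7.26% for the E-box and 7.42% and 5.84% for the YY1 core). CCAAT was in 34.3% (35.1% and 34.6%) and GGGCGG in 62.9% (67.6% and 45%). Median GC content was 64.7% in import windows and 65% in windows of genes tested.

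**Figure D4:**
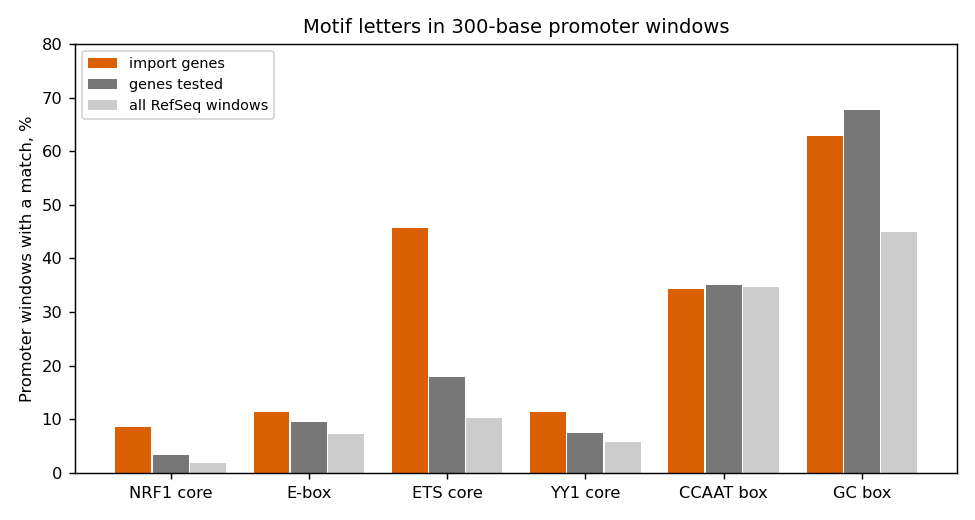
Percent of promoter windows of 300 bases with at least 1 match to each motif on either strand (y axis, from 0): 35 windows of import genes (orange), windows of genes tested (dark grey) and all RefSeq windows (light grey). The ETS core stands at 45.7%, 17.9% and 10.3%.

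The ETS matches lay close to the start in many of these genes, and 1 match per gene is shown here for genes of each compartment, with the 7 letters of the match in capitals (CCGGAAG or, on the other strand, CTTCCGG), 5′ to 3′ on the gene's strand, with the first matched base counted from the start.

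TOMM22 (2, chr22:38681947-38681975, plus): cctcctttccgCTTCCGGtgtcccctaca
TOMM34 (-4, chr20:44960384-44960412, minus): ggcgcttgcgcCCGGAAGgtgtgccgcac
TOMM20 (-22, chr1:235128842-235128870, minus): gttgactgggaCCGGAAGtggcgtgtgct
TOMM70 (-104, chr3:100401176-100401204, minus): tttcccttaacCCGGAAGtgatttccgcc
MTX2 (-6, chr2:176269425-176269453, plus): tgtcggctgcgCCGGAAGtccctagccag
TIMM23 (-48, chr10:45972430-45972458, plus): ggcgcttccagCTTCCGGggcgcacattg
TIMM23B (-42, chr10:49942000-49942028, plus): ggcgcttccggCTTCCGGggcgcacactg
TIMM13 (-10, chr19:2427579-2427607, minus): cgggcggcccgCTTCCGGcgcagttagtt
TIMM10 (-13, chr11:57530750-57530778, minus): ggactttcctcCCGGAAGtaacccacgtg
PMPCB (-17, chr7:103297407-103297435, plus): aggtcgcgaccCCGGAAGcacatccttca
OXA1L (3, chr14:22766679-22766707, plus): aagcaagtcctCTTCCGGgcaaaatggcg

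Matches were found in genes called higher, called lower and not called. Of the 16 genes with an ETS core 7 were called higher, 1 lower and 8 not called, with a median difference of 0.11 (log2). Of the 18 genes with a window and no ETS core 11 were called higher, 1 lower and 4 not called, with a median of 0.25, and the other 2 were below the filter. OXA1L, which was lower, and TOMM22 and TOMM34, which were higher, each hold an ETS match beside the start. Medians with and without a match were 0.25 and 0.17 for the NRF1 core and 0.13 and 0.17 for the E-box. For the YY1 core they were 0.21 and 0.17, for CCAAT 0.21 and 0.14, and for GGGCGG 0.20 and 0.11. These splits use the contrast known when the family was proposed, and the part of any motif in the differences was not tested. The 3 windows with an NRF1 match were those of CHCHD4, TIMM9 and TOMM7, with the 9 letters of 1 match each in capitals. In CHCHD4 an overlapping match on the other strand starts at -151 and is not marked.

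CHCHD4 (-152, chr3:14125004-14125032, minus): cagtgtttctGCGCATGCGcgcggcgaga
TIMM9 (-129, chr14:58427642-58427670, minus): agacacaacaCGCATGCGCgccaagaaac
TOMM7 (-124, chr7:22822955-22822983, minus): atcgcaaccaCGCATGCGCctactactgc

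The most CCAAT boxes in the family, counted on either strand, were in the windows of TOMM40 and TIMM17A, with 5 each. This count was made after the windows had been seen. At least 5 boxes were found in 68 of the 13017 windows of genes tested (0.522%) and in 126 of all 35116 windows (0.359%). TIMM17B, which was called lower, and TOMM40L, called higher, followed with 3 boxes each. TIMM44, whose difference was near that of TOMM40, had 1, and TIMM8A and TIMM23B had 0. GRPEL1 has no window here. The part of these boxes in the differences was not tested. The 5 boxes of TOMM40 are all upstream of its RefSeq start, though inside the gene as GENCODE draws it, and are shown with CCAAT in capitals, with the first matched base counted from the start.

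TOMM40 (-229, chr19:44891014-44891040, plus): ggcgacgcgagCCAATaggcgcaggcg
TOMM40 (-206, chr19:44891037-44891063, plus): ggcgctgcgagCCAATgggaagggtgg
TOMM40 (-158, chr19:44891085-44891111, plus): gcgagtgagaaCCAATacaaaaggaca
TOMM40 (-107, chr19:44891136-44891162, plus): tatgcacaagtCCAATgggaagaccga
TOMM40 (-53, chr19:44891190-44891216, plus): ggcacactaaaCCAATgggctaggtgg

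The stretch of 238 bases upstream of the annotated TIMM17A gene (plus strand) holds 4 of its 5 boxes, in capitals as CCAAT or ATTGG.

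TIMM17A (chr1:201955253-201955490): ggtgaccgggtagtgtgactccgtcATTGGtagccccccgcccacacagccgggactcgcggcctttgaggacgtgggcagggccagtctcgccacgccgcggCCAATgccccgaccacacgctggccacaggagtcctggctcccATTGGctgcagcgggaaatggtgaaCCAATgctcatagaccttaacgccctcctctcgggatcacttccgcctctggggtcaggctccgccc

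Genes that work with the import machinery but fall outside the symbol rule were followed as lists. Of 15 tested import genes outside the rule 5 (33.3%) were called higher and 0 lower (median 0.05). Over all genes tested, 23.2% were called higher and 26.2% lower. PITRM1, which degrades cleaved presequences, was at 16.9 ± 0.877 FPKM in NC and 26.6 ± 0.737 FPKM in sh-RAD51C (SD, n = 3 each), above any member of the family in its difference (0.62, log2). HSPA9, the Hsp70 that GRPEL1 and TIMM44 serve, was at 65.2 ± 1.05 and 82.9 ± 3.03 FPKM. DNAJC11 of the outer membrane (0.34) and the extractase ATAD1 (0.25) were called higher as well, and MTCH2, an outer membrane insertase, by 0.12. Without sh-RAD51C 3, 1 gene of the list was called lower. DNAJC19, the J protein of the motor, and ROMO1, a TIM23 subunit, were not called at 0.05 and 0.01.

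Of 11 mitochondrial chaperones and proteases 4 (36.4%) were called higher and 1 (9.09%) lower, against 23.2% and 26.2% of all genes tested. The 4 higher ones are folding helpers. HSPD1 was at 211 ± 4.13 FPKM in NC and 280.1 ± 6.51 FPKM in sh-RAD51C (SD, n = 3 each). HSPE1, its chaperonin partner, was at 59.6 ± 0.786 and 76.2 ± 4.22 FPKM. DNAJA3 and TRAP1 were higher by 0.23 each (log2). The protease OMA1 was called lower (-0.22), but 0 genes of the list were called lower without NC 1, without NC 2 or without any 1 sh-RAD51C library. YME1L1, the protease known to degrade TIMM17A, was not called (0.03).

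Among 8 tested regulators of mitochondrial biogenesis 4 (50%) were called higher and 2 (25%) lower, against 23.2% and 26.2% of all genes tested. The share called lower was thus near that over all genes. MYC was at 31 ± 1.11 and 50.4 ± 1.61 FPKM, and the coactivator PPRC1 at 7.29 ± 0.222 and 10.7 ± 0.813 FPKM (SD, n = 3 each). TFAM and GABPB1 were higher by 0.22 each (log2), ESRRA and YY1 were lower by differences of -0.14 and -0.10, and NRF1 (-0.14) and GABPA (-0.03) were not called. Without NC 2 or NC 3, 0 regulators were called lower, and without any 1 sh-RAD51C library 1 was. Of 12 proteins that travel by the small TIM or disulfide routes, 2 (16.7%) were called higher and 1 (8.33%) lower. Both shares are under those of all genes tested, 23.2% and 26.2%. The higher ones were CHCHD3 (0.28) and SLC25A4 (0.18), and the lower was SLC25A6 (-0.39), whose pseudoautosomal copies can split its reads. Without sh-RAD51C 1, 3 of the 12 were lower, and without NC 1, NC 2 or sh-RAD51C 1 only 1 was higher.

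Set beside other nuclear-encoded mitochondrial families, the median difference of the import genes was near that of the mitochondrial ribosomal protein genes. Of 77 tested ribosomal genes 50 (64.9%) were called higher and 0 lower, with a median of 0.18, and 3 were lower without sh-RAD51C 1. Over all genes tested the shares were 23.2% higher and 26.2% lower. Of 77 tested respiratory chain and ATP synthase subunits 2 (2.6%) were called higher and 15 (19.5%) lower, each a smaller share, with a median of -0.05. That split moved with the scaling: 1 was higher and 27 lower with quantile normalization, 2 and 7 with libraries rescaled to 1 median, 2 and 10 with a trimmed mean of log ratios, and 17 and 11 once length trends were removed. It also moved with single libraries: 30 were lower without sh-RAD51C 1, and with any other library left out 0 to 7 were higher and 6 to 13 lower. The difference between families was not tested.

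**Figure D5:**
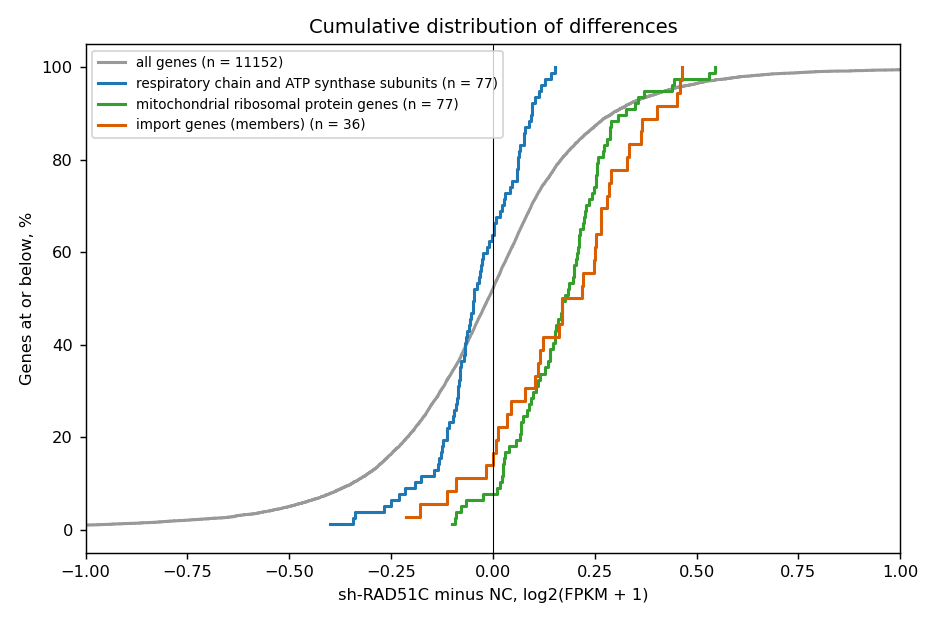
Cumulative share of genes (y axis, percent) at or below each difference (x axis, sh-RAD51C minus NC, log2(FPKM + 1)) for all genes tested, respiratory chain and ATP synthase subunits, mitochondrial ribosomal protein genes and import genes. The import and ribosomal curves lie to the right, with medians of 0.19 and 0.18, and the respiratory chain median is -0.05.

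Within the sh-RAD51C group, library 1 held the highest value of its group for 18 of 36 tested import genes and library 3 the lowest for 18, against 33% and 28.1% of all genes tested. Summed over the 38 genes the FPKM was 1469, 1410 and 1367 in sh-RAD51C 1, 2 and 3, and between 1275 and 1286 in NC. The tested import genes had a median inferred length of 2198 bases against 3975 for genes tested. Across all 11143 genes with an inferred length, the excess of sh-RAD51C 1 over libraries 2 and 3 had a Pearson r of -0.49 and a Spearman rho of -0.54 with log2 length, and across the 36 import genes -0.40 and -0.45. These are descriptions across genes of the same libraries, and the part of length in the values of sh-RAD51C 1 was not tested. Across the 36 genes the difference between groups had an r of 0.09 with log2 length and of -0.21 with the NC level.

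Tested members had between 110 (TIMM23B) and 13886 (TOMM20) inferred reads in a library. Shared sequence touched some of them. At least 10% of exon bases in another gene, or 10% of 50-base words in another gene's transcripts, were found for 14 of the 36. TOMM40 was among them (10.8% of words). So were DNLZ, TOMM5 and TIMM13, each called higher, with 22.9%, 18.7% and 13% of exon bases in another gene on the same strand. Of the 22 genes under that limit, which was set after seeing the data, 13 were called higher, 2 lower and 7 not called. Their median difference was 0.17 (log2). Over all genes tested, with no such limit, 23.2% were called higher and 26.2% lower.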

How the data were processed

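Expression of 23024 gene symbols in 6 RNA sequencing libraries (3 NC, 3 sh-RAD51C) was deposited as FPKM, calculated by the authors. The submitters' processing notes list hg38, R 3.2.0 and DESeq2, and do not say what each was used for. The sources used here give no aligner, counting tool, strand setting or annotation.

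The 11152 genes averaging 1 FPKM or more were compared as log2(FPKM + 1) in limma 3.58.1 under R 4.3.3 (variance trend on, group as the single term), with p-values adjusted by Benjamini-Hochberg and a threshold of 0.05. Differences on that scale understate changes of low genes. Read numbers were inferred from the FPKM steps and RefSeq lengths, and came out whole, with 1 length per gene for all 6 libraries and a relative error under 1e-10, for 99.9% of these genes. Same-group libraries were no copies of each other: chi-square divided by its degrees of freedom was 3.69 to 14.3. The fit was also run on simulated reads, drawn independently for each gene with the same spread for all genes. Those reads hold no length trend such as that of sh-RAD51C 1, so they cannot show its effect on the calls.

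Members and lists were chosen with earlier results of these data known. Any member could be named, and from each other list up to 4 genes by size of difference. Further genes of those lists were named after their values were seen. Positions, exon overlap and shared 50-base words came from GENCODE 29, promoters from RefSeq. Counting and plotting ran in Python 3.11.15 (pandas 2.3.3, scipy 1.17.1, numpy 2.4.6). Alternatives covered the pseudocount, the filter, scaling, the variance model, a replicate block and each library left out, and, added after seeing the data, voom on inferred reads and removal of length trends.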

Additional observations from a re-analysis of the deposited data

How the results depend on the processing

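Of the 22 import genes called higher, 19 were called in each of the alternatives in which they were fitted, the exceptions being CHCHD4, TIMM10 and TIMM8B. Of the 2 called lower, OXA1L was and TIMM17B was not. The count called higher ran from 20 without the filter on the mean to 24 with length trends removed. Only 1 was called lower without that filter, with libraries rescaled to 1 median, with a trimmed mean of log ratios, in limma without a trend and with length trends removed, and 1 to 3 with 1 library left out. The median difference ran from 0.16 to 0.20 with 1 library left out. Over all genes 5511 were called, 5660 with voom on inferred reads, and 3947 where a mean of at least 5 FPKM was asked for, which leaves fewer genes tested.

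The groups share replicate numbers, but same-numbered libraries deviated together weakly, with correlations across genes of 0.19, 0.03 and 0.09, and NC 3 correlated best with sh-RAD51C 2 (0.11). The numbers were therefore not taken as pairs. With the replicate block 22 import genes were called higher and 2 lower, and 5569 of all genes were called.

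Some genes near 0 changed sign without a call on either side. With quantile normalization MIPEP was at 0.041, MTX1 at 0.0044 and PMPCA at -0.017. MTX1 was at 0.017 with libraries rescaled to 1 median, 0.010 with a trimmed mean of log ratios, 0.00040 with voom and 0.015 with length trends removed, where TOMM7 was at 0.037. With 1 library left out, MIPEP ran from -0.036 to 0.0091, MTX1 from -0.063 to 0.038, PMPCA from -0.0029 to 0.018 and TIMM10B from -0.023 to 0.062. Why any of these values moved was not tested. PAM16 and TOMM20L were fitted only without the filter on the mean.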
